A study of Mus with 10 samples.

Results

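The S100 genes encode small calcium-binding proteins. Of them, 10 were followed here on the skin arrays: S100a3, S100a4, S100a6, S100a7a, S100a8, S100a9, S100a10, S100a11, S100a14 and S100a16. They were taken as a named family from 22180 genes with 1 symbol, each by its probe set with the highest mean, and all 10 had a single probe set. The other 8 S100 genes measured were S100a1, S100a2, S100a5, S100a7l2, S100a13, S100b, S100g and S100z. No values were used to choose the family, although earlier results of these data were known when it was chosen.

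Skin RNA of female BALB/c mice, aged 7 to 8 weeks, was measured on 10 Affymetrix mouse gene arrays. The PUVA 7D group had 4 arrays and the PUVA 3D group 4, and 2 arrays were controls. PUVA is a topical psoralen, a plant compound that crosslinks DNA when lit, followed by UVA light. In both PUVA groups the UVA dose was 0.25 J/cm2, given 2 times a week for 2 weeks, and the groups differ in the gap that followed, of 7 or 3 days. In the study, PUVA came ahead of imiquimod, a drug that as a cream gives mice a psoriasis-like dermatitis. From the labels it cannot be told if imiquimod had been applied to the skin on the arrays, nor what was done to the control skin beyond having no gap. That each array stands for a mouse of its own is not stated either, so the spread behind the p-values is that between samples and may be technical.

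S100 proteins carry paired calcium-binding loops of the EF-hand type and work mostly as dimers that bind other proteins when calcium rises. S100A8 and S100A9 form calprotectin, which fills the cytosol of neutrophils and is made by keratinocytes in psoriasis, wounds and other irritated epidermis. S100A7A is the mouse relative of human psoriasin, an antimicrobial protein of inflamed epidermis. Other members are part of resting skin: S100A3 belongs to the hair cuticle, S100A14 and S100A16 to epithelia, S100A10 and S100A11 bind annexins at membranes, and S100A4 and S100A6 are known from fibroblasts and other motile cells. In the RefSeq annotation (GRCm38.p6) all 10 lie on chromosome 3. From S100a14 to S100a9 the protein-coding neighbours are S100 genes only, and S100a11 and S100a10 form a separate pair, with 54 other protein-coding genes between S100a7l2 and S100a11.

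The deposited values were read as log2 from their range, and every fold rests on that base. The 10 arrays had log2 medians of 5.83 to 5.86 and pairwise correlations of 0.9857 to 0.9934. The keratins Krt14 of basal and Krt10 of suprabasal epidermis were bright in every group (12.04, 11.91 and 12.09 for Krt14, and 12.73, 12.71 and 12.71 for Krt10, as mean log2 values in PUVA 7D, PUVA 3D and control skin). The controls were far apart in hair genes. The mean of 10 inner root sheath genes was 8.82 on control replicate 2 and 6.52 on control replicate 1. Results that use the controls are therefore given without each of them where that matters. A library depth does not exist for arrays, and their number, above all the 2 controls, limits the precision.

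No S100 gene passed an adjusted p of 0.05 in any of the 3 comparisons (limma over all genes, Benjamini-Hochberg adjustment), and few genes did. In PUVA 3D over control 1 gene passed (0.00451% of the genes tested), in PUVA 7D over control 0 (0%, with 1307 at an unadjusted p under 0.05), and in PUVA 7D over PUVA 3D 2 (0.00902%). These were Hamp, which encodes the iron hormone hepcidin, and in the last comparison also Mir377, named here only because they passed. Among the 10 S100 genes the smallest adjusted p was 0.374, 0.763 and 0.472 in these comparisons. Their median log2 changes were -0.0068 in PUVA 3D over control, -0.076 in PUVA 7D over control and -0.0029 in PUVA 7D over PUVA 3D, beside medians over all genes of 0.0023, 0.015 and 0.0095.

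At an unadjusted p under 0.05, 4 of the 10 differed between PUVA 3D and control skin (9.74% of all genes). All 4 were lower (S100a3, S100a8, S100a14 and S100a16), where 4.07% of all genes were lower, and none was higher, where 5.67% were. Between PUVA 7D and control skin 1 of the 10 passed that threshold (5.89% of all genes), namely S100a3, which was lower (2.68%), and none was higher (3.21%). Between PUVA 7D and PUVA 3D skin 1 of the 10 passed it (9.77% of all genes), namely S100a14, which was higher (5.33%), and none was lower (4.43%). The shares in PUVA 7D skin are thus near the background, and the 4 lower genes in PUVA 3D skin exceed it in number. These 4 are not independent. They share the 2 controls. S100a8, S100a14 and S100a16 correlated with each other at 0.696 to 0.856 over the 10 arrays, which includes the differences between groups. Deviations from group means over the 8 PUVA arrays correlated at 0.558 between S100a14 and S100a16. For S100a8 they correlated at 0.399 with S100a14 and at -0.076 with S100a16. S100a8 lay below the lower quartile of the genes on every array. S100a3 had a log2 change of only -0.29 without control replicate 2.

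Arrays of PUVA 3D and control skin did not overlap for 5 of the 10 genes (17.4% of all genes). Of these, 4 were lower in PUVA 3D skin (7.89%), the same 4 as above, and S100a11 was higher (9.52%). Arrays of PUVA 7D and control skin did not overlap for 2 genes (14.4%), S100a3, which was lower (5.85%), and S100a11, which was higher (8.56%). Between the PUVA groups there was 1 such gene (5.23%), S100a16, which was higher in PUVA 7D (2.95%), and none that was lower (2.28%). Below 0 lay 5 of the 10 log2 changes in PUVA 3D over control (49.4% of all genes), 7 in PUVA 7D over control (45%) and 5 in PUVA 7D over PUVA 3D (46.8%). The 2 comparisons with control share their 2 control arrays.

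**Figure D1:**
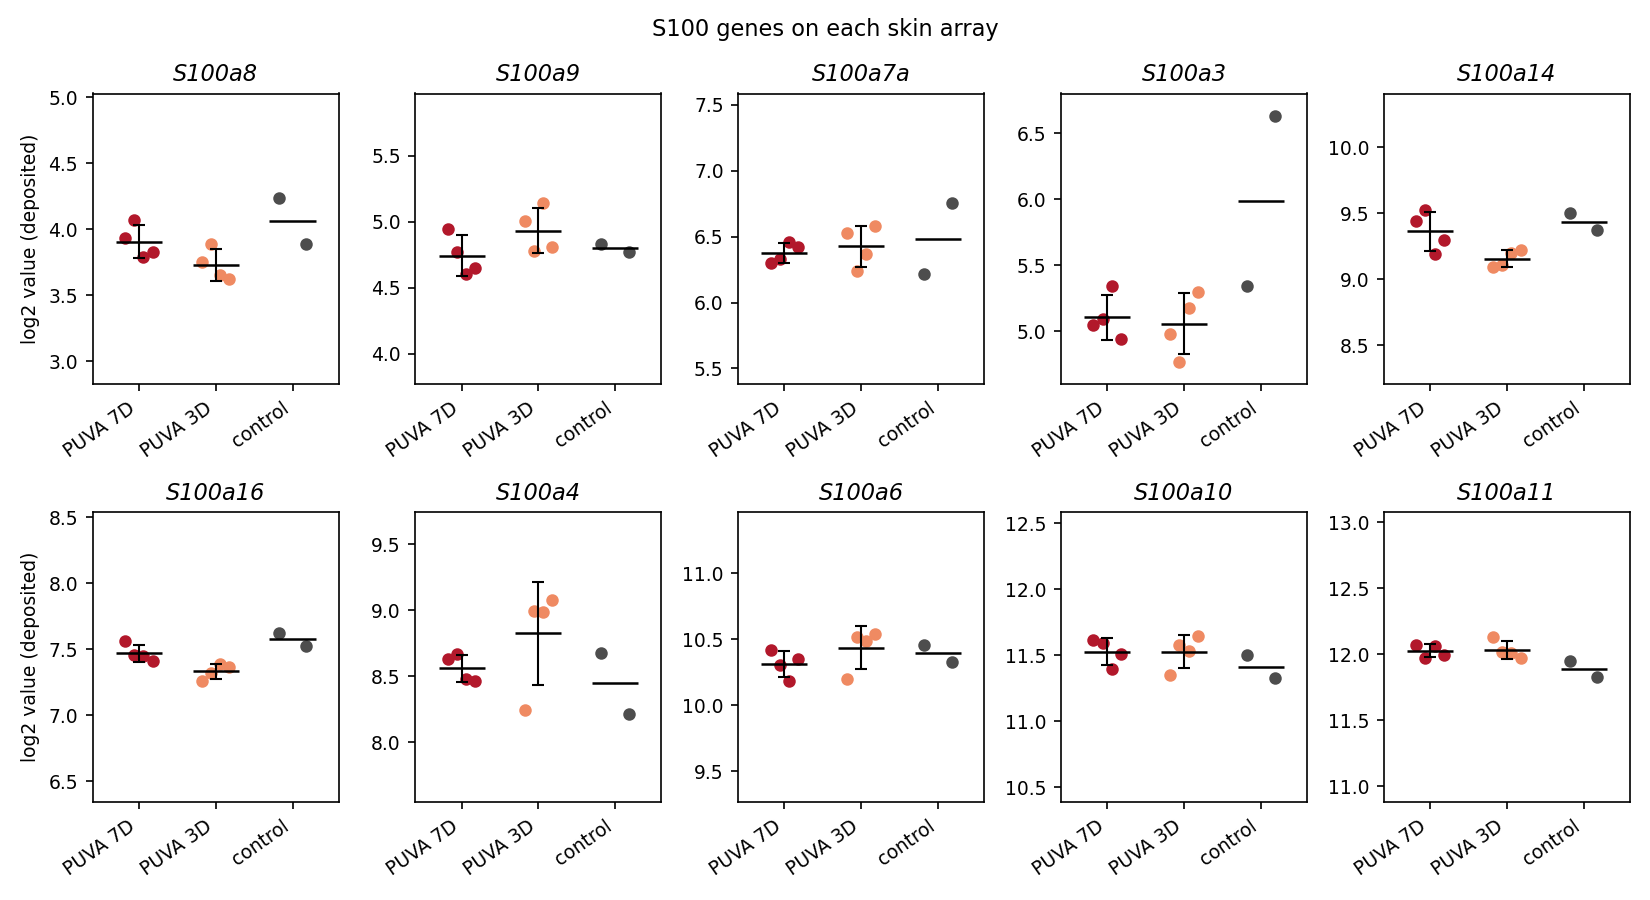
Deposited log2 value (y axis) of each S100 gene on each array, by group (x axis); points are arrays in replicate order, lines are group means, bars are SD (n = 4 in each PUVA group; none drawn for the 2 controls), and each panel spans the same number of log2 units. S100a3 on control replicate 2, at 6.63, stands far above its other arrays, and S100a4 on PUVA 3D replicate 1, at 8.25, lies below the other PUVA 3D arrays.

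Of the alarmin genes, S100a8 gave a dim signal on every array. Its log2 values were 3.93, 4.07, 3.79 and 3.83 in PUVA 7D skin, 3.75, 3.885, 3.65 and 3.62 in PUVA 3D skin, and 4.23 and 3.887 in control skin. All 10 values of S100a8 lay below the lower quartile of the genes on their array, which was 4.49 to 4.57. How far this signal stood above background was not analysed here.

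For S100a8 in PUVA 3D over control the fit gave a log2 change of -0.33 ± 0.12 (SE, limma) and an adjusted p of 0.446, which misses the threshold. The PUVA 3D arrays lay below both controls, but PUVA 3D replicate 2 and control replicate 2 were almost equal. Without control replicate 1 the change was -0.16, and without control replicate 2 it was -0.51. Its change in PUVA 7D over control was -0.15 ± 0.12 (adjusted p = 0.947), and 0.020 without control replicate 1, so its direction rests on that array. PUVA 7D over PUVA 3D gave 0.18 ± 0.10 (adjusted p = 0.585), with overlapping arrays. The means of the fibroblast, Schwann cell and endothelial lists, described with S100a14, correlated with S100a8 at -0.757, -0.742 and -0.635 over the 10 arrays. Without control replicate 2 the values were -0.761, -0.749 and -0.9. The part of these lists in the values of this dim gene was not tested.

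S100a9, which encodes the partner of S100A8, had log2 values of 4.95, 4.77, 4.603 and 4.65 in PUVA 7D skin, 5.004, 4.78, 5.14 and 4.81 in PUVA 3D skin, and 4.83 and 4.77 in control skin. These sit just above the lower quartile, and the 3 groups overlap. The log2 change was 0.13 ± 0.125 (SE) in PUVA 3D over control, with a 95% interval of -0.15 to 0.41, and -0.062 ± 0.125 in PUVA 7D over control, with an interval of -0.34 to 0.22. On this scale a rise of S100a9 by more than 1.32-fold in PUVA 3D skin lies outside the interval, for a probe set this dim. S100a8 and S100a9 did not vary together over the 10 arrays, with a Pearson correlation of -0.24, given as a description.

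S100a7a had log2 values of 6.30, 6.33, 6.46 and 6.42 in PUVA 7D skin, 6.53, 6.24, 6.36 and 6.58 in PUVA 3D skin, and 6.21 and 6.76 in control skin. The 2 controls lie outside the range of the 7D arrays on either side. The log2 change was -0.057 ± 0.145 (SE, adjusted p = 0.937) in PUVA 3D over control and -0.11 ± 0.145 (adjusted p = 0.971) in PUVA 7D over control. Its sign turned to 0.21 and 0.16 without control replicate 2.

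Genes that mark neutrophils and activated epidermis were read beside these 3 genes, from lists chosen with earlier results known. Of 16 measured neutrophil genes, 11 lay above 0 and 5 below in PUVA 3D over control, with a median log2 change of 0.061. Without control replicate 1 the median was 0.149, with 12 above 0, and without control replicate 2 it was 0.080, with 9 above 0. At an unadjusted p under 0.05 with both controls, 1 was higher (5.67% of all genes) and 0 lower (4.07%). The means of the list were 5.23 to 5.32 in PUVA 7D, 5.25 to 5.63 in PUVA 3D and 5.13 to 5.27 in control skin. Ly6g, Ctsg, Camp, Ngp and Mmp8, which encode a surface marker and granule proteins of neutrophils, lay below the lower quartile on every array of all 3 groups. Retnlg, a resistin-like gene of neutrophils, averaged 4.75 ± 0.21 in PUVA 7D, 5.18 ± 0.28 in PUVA 3D (SD, n = 4 each) and 4.28 ± 0.45 in control skin (SD, n = 2). Its log2 change in PUVA 3D over control was 0.90 ± 0.21 (SE, adjusted p = 0.25), and 0.59 without control replicate 1 and 1.22 without control replicate 2. Retnlg too was dim, with lowest values of 3.96 in control and 4.45 in PUVA 7D skin, both below the lower quartile.

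Of 17 measured genes of activated epidermis, 10 lay above 0 and 7 below in PUVA 3D over control (median 0.043), and 13 above and 4 below in PUVA 7D over control (median 0.11). Without control replicate 2 these counts were 7 above and 10 below in both comparisons, and the medians turned to -0.090 and -0.0054. Krt6b, a keratin of stressed epidermis and of the hair follicle, had a log2 change of 1.004 ± 0.28 in PUVA 3D over control (SE, adjusted p = 0.319). Without control replicate 2 it was 0.67, and the arrays of these groups overlapped. Krt6a and Krt17, keratins of the same list, lay the other way in that comparison, at -0.38 ± 0.44 and -0.53 ± 0.25 (SE). Krt16, a keratin that marks psoriatic epidermis, had -0.058 ± 0.27 in the same comparison. The beta-defensin genes Defb4 and Defb14 gave 0.39 ± 0.08 and 0.62 ± 0.15 in PUVA 7D over PUVA 3D (SE, adjusted p = 0.23 and 0.263). None of the genes on either list passed an adjusted p of 0.05 in the 3 comparisons.

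S100a3, the hair cuticle member, had the log2 changes furthest from 0 in both comparisons with control. Its log2 values were 5.04, 5.09, 5.34 and 4.94 in PUVA 7D skin, 4.98, 4.77, 5.17 and 5.30 in PUVA 3D skin, and 5.34 and 6.63 in control skin. The PUVA arrays lay below both controls, though the highest PUVA 7D array (5.341) all but touched control replicate 1 (5.342). Means were 5.10 ± 0.17 in PUVA 7D, 5.05 ± 0.23 in PUVA 3D (SD, n = 4 each) and 5.99 ± 0.91 in control skin (SD, n = 2).

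The log2 change of S100a3 was -0.93 ± 0.285 in PUVA 3D over control and -0.88 ± 0.285 in PUVA 7D over control (SE, limma, adjusted p = 0.374 and 0.763). That corresponds to 0.524 and 0.542 of the control level. Without control replicate 2 the changes were -0.29 and -0.24. Without control replicate 1 they were -1.58 and -1.53, with adjusted p of 0.00661 and 0.007, under the assumption that the single control left varies as the PUVA arrays do. The call of S100a3 thus turns on which control is used. Between the PUVA groups, which needs no control, its change in PUVA 7D over PUVA 3D was 0.049 ± 0.23 (SE), with a 95% interval of -0.47 to 0.56.

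S100a3 and hair genes were both highest on control replicate 2. The mean of 18 measured genes of the hair shaft and cuticle was 5.36 to 5.51 in PUVA 7D skin and 5.34 to 5.55 in PUVA 3D skin, against 5.60 and 6.61 in control skin. Of these genes, 16 lay below 0 in PUVA 3D over control (median log2 change -0.69) and 17 in PUVA 7D over control (median -0.59). Without control replicate 2 the medians were -0.23 and -0.20, and without control replicate 1 they were -1.1 and -1.05. At an unadjusted p under 0.05, 13 and 11 were lower in these comparisons with both controls (4.07% and 2.68% of all genes). In them 0 passed the adjusted threshold. Krtap11-1, a keratin-associated protein gene of the hair shaft, had the smallest p of the list, with a log2 change of -1.09 ± 0.19 in PUVA 3D over control (SE, adjusted p = 0.117). Without control replicate 2 it was -0.65 (adjusted p = 0.357), and without control replicate 1 it was -1.52 and passed (adjusted p = 0.000625). The Pearson correlation of S100a3 with this list was 0.96 over 10 arrays, with a Spearman rho of 0.745, and 0.64 without control replicate 2. It was 0.517 over the 8 PUVA arrays alone. With the mean of the 10 inner root sheath genes the correlation was 0.935 over 10 arrays, 0.423 without control replicate 2 and -0.00675 over the 8 PUVA arrays. On the PUVA arrays that mean ran only from 5.45 to 5.77, with Krt26, Krt72 and Krt74 below the lower quartile on all of them. The mean of the hair shaft and cuticle list ran only from 5.34 to 5.55 there, with Krtap11-1 and Krtap8-1 below the lower quartile on all PUVA arrays. Neither correlation over the 8 PUVA arrays can therefore show if S100a3 follows these lists. All these correlations are descriptions, since the points share their groups and control replicate 2 lies far from the rest. Melanocyte genes were also highest on control replicate 2, with list means of 5.92 to 6.16 in PUVA 7D and 5.92 to 6.65 in PUVA 3D skin, against 6.219 and 7.496 in control skin. Of 8 measured, 7 lay below 0 in each PUVA group over control (medians -0.735 in PUVA 3D and -0.764 in PUVA 7D). Without control replicate 2 the medians were 0.032 and -0.196. The correlation of S100a3 with this list was 0.898 over 10 arrays and 0.381 without control replicate 2. The part of these lists in the S100a3 values was not tested. In bulk skin, fewer hair follicle cells and less RNA per cell cannot be told apart.

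**Figure D2:**
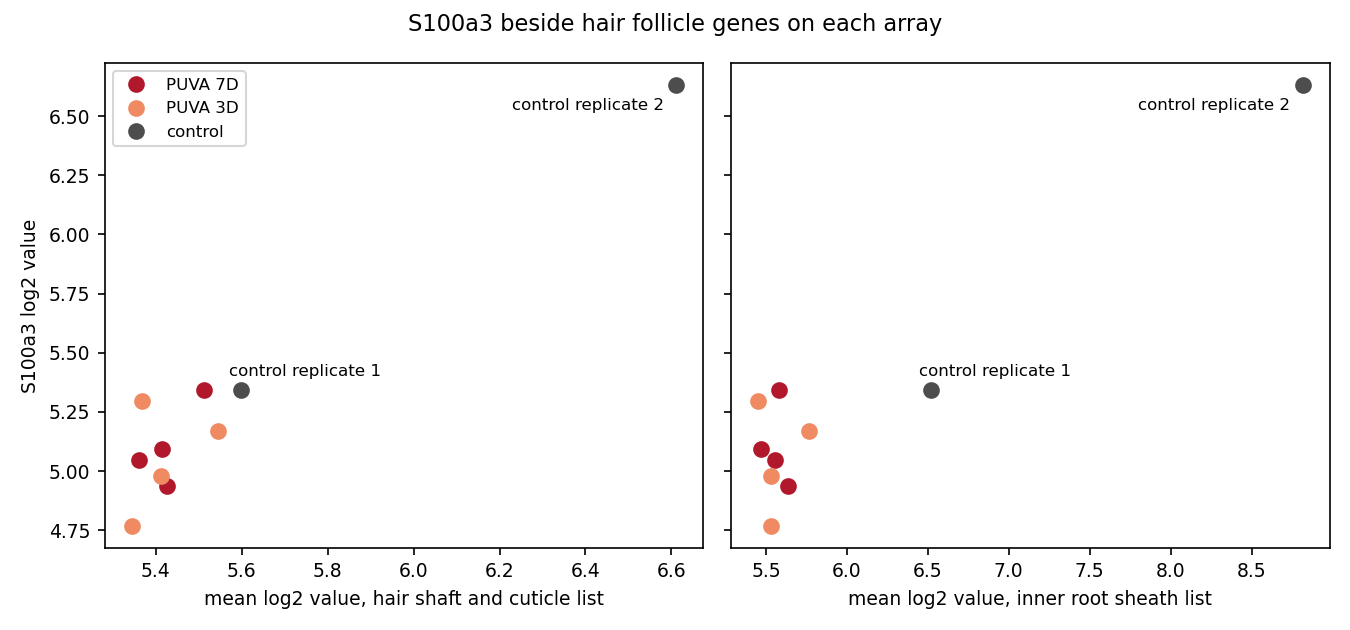
S100a3 log2 value (y axis) against the mean log2 value of the hair shaft and cuticle list and of the inner root sheath list (x axes, log2 units), 1 point per array coloured by group. Control replicate 2 lies at the far upper right in both panels, and control replicate 1 lies close to the PUVA arrays for S100a3, at 5.34.

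The genes most like S100a3 in pattern were Krt35 and Krt33a, keratins of the hair shaft, and the kallikrein gene Klk13. Their Pearson correlations with it over the 10 arrays were 0.964, 0.964 and 0.961, and 0.688, 0.697 and 0.745 without control replicate 2. They were sought among 5993 genes with an SD of at least 0.2, and predicted genes, small RNAs and odour or pheromone receptors were left unnamed (0 to 4 of them ranked above the third named gene of a member). Padi3, which encodes an enzyme that converts arginines of S100A3 and of trichohyalin to citrulline, averaged 4.49 ± 0.05 in PUVA 7D, 4.46 ± 0.11 in PUVA 3D (SD, n = 4 each) and 5.68 ± 1.61 in control skin (SD, n = 2). On all 4 PUVA 7D arrays Padi3 lay below the lower quartile of the genes. Its log2 change in PUVA 3D over control was -1.22 ± 0.44 (SE, adjusted p = 0.439). It was -0.086 without control replicate 2 and -2.36 without control replicate 1.

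S100a14 and S100a16, the epithelial members, were low in the PUVA 3D group. S100a14 had log2 values of 9.44, 9.52, 9.19 and 9.30 in PUVA 7D skin, 9.09, 9.11, 9.20 and 9.22 in PUVA 3D skin, and 9.50 and 9.37 in control skin. All PUVA 3D arrays lay below both controls, while PUVA 7D arrays overlapped each of the other groups. The log2 change was -0.28 ± 0.10 in PUVA 3D over control (SE, limma, adjusted p = 0.444). PUVA 7D over PUVA 3D gave 0.21 ± 0.08 (SE, adjusted p = 0.472), and an exact permutation test over 70 assignments gave p = 0.0857.

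S100a16 had log2 values of 7.56, 7.46, 7.45 and 7.41 in PUVA 7D skin, 7.26, 7.32, 7.39 and 7.36 in PUVA 3D skin, and 7.62 and 7.53 in control skin. The PUVA 3D arrays did not overlap with either other group. The log2 change was -0.24 ± 0.08 in PUVA 3D over control (SE, adjusted p = 0.393) and 0.14 ± 0.06 in PUVA 7D over PUVA 3D (SE, adjusted p = 0.531). For S100a16 between the PUVA groups an exact permutation test gave p = 0.0286, the smallest that 4 against 4 arrays allow, and 5.23% of all genes separated these groups as fully. Against control, in PUVA 7D, S100a16 had -0.11 ± 0.08 and S100a14 had -0.072 ± 0.10 (SE), with adjusted p of 0.944 and 0.972. Leaving out any 1 array kept the PUVA 3D changes between -0.34 and -0.22 for S100a14 and between -0.29 and -0.20 for S100a16, with neither past the adjusted threshold.

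These 2 genes varied together, with a Pearson correlation of 0.856 over the 10 arrays and 0.558 between their deviations from group means over the 8 PUVA arrays. Aacs, which encodes an enzyme that feeds ketone bodies into lipid synthesis, was among the 3 genes most like each of them, at 0.898 with S100a14 and 0.957 with S100a16. Genes of fibroblasts, Schwann cells and macrophages lay the other way. All 10 fibroblast genes lay above 0 in PUVA 3D over control (median 0.27). Of them, 5 were higher at an unadjusted p under 0.05 (5.67% of all genes). The median was 0.419 without control replicate 2, and 0.211 with 9 above 0 without control replicate 1. In PUVA 7D over PUVA 3D all 10 lay below 0 (median -0.29), with 4 lower at that unadjusted threshold (4.43% of all genes). The fibroblast means were 10.49 to 10.91 in PUVA 7D, 10.90 to 11.33 in PUVA 3D and 10.51 to 10.93 in control skin. Their correlation with S100a14 over the arrays was -0.816 and with S100a16 -0.661. Of the Schwann cell genes, 5 were measured, and all 5 lay above 0 in PUVA 3D over control (median 0.319) and below 0 in PUVA 7D over PUVA 3D (median -0.266). The Schwann cell list correlated at -0.864 with S100a14 and at -0.736 with S100a16. All 10 macrophage genes lay above 0 in PUVA 3D over control (median 0.451) and 9 below 0 in PUVA 7D over PUVA 3D (median -0.317), with correlations of -0.643 and -0.662. Without control replicate 1 the counts above 0 in PUVA 3D over control were 4 of 5 Schwann cell and 9 of 10 macrophage genes. Of 12 keratinocyte genes, 9 lay below 0 in PUVA 3D over control (median -0.105) and 11 above 0 in PUVA 7D over PUVA 3D (median 0.14). Below 0 in PUVA 3D over control lay 7 of the 12 without control replicate 1 (median -0.037) and 10 without control replicate 2 (median -0.18). The keratinocyte list correlated at 0.576 with S100a14 and at 0.386 with S100a16. Other lists moved the same way. All 8 adipocyte genes lay below 0 in PUVA 3D over control (5 without control replicate 1). Above 0 in PUVA 7D over PUVA 3D lay 7 of them, and the list correlated at 0.61 and 0.53. Of 8 skeletal muscle genes, 7 lay below 0 and 8 above 0 in these comparisons (correlations 0.5 and 0.408). Endothelial genes lay the other way, with 8 above 0 and 7 below 0 (-0.558 and -0.632). The part of such shifts in the values of S100a14 and S100a16 was not tested.

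S100a4, known as fibroblast-specific protein and also made by macrophages and T cells, had log2 values of 8.63, 8.67, 8.48 and 8.46 in PUVA 7D skin, 8.25, 8.99, 8.98 and 9.07 in PUVA 3D skin, and 8.68 and 8.21 in control skin. All PUVA 3D arrays but replicate 1 lay above both controls and all PUVA 7D arrays, and replicate 1 lay near the lower control. The log2 change was 0.38 ± 0.215 in PUVA 3D over control (SE, adjusted p = 0.619), and 0.15 without control replicate 2 and 0.61 without control replicate 1. PUVA 7D over PUVA 3D gave -0.27 ± 0.18 (SE, adjusted p = 0.652), and -0.46 without PUVA 3D replicate 1. The change in PUVA 7D over control was 0.11 ± 0.215 (SE), and turned to -0.12 without control replicate 2.

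S100a6, the gene of calcyclin, which binds annexins and the Siah-interacting protein, had log2 values of 10.42, 10.30, 10.19 and 10.35 in PUVA 7D skin, 10.52, 10.49 and 10.54 on PUVA 3D replicates 2 to 4 with 10.20 on replicate 1, and 10.46 and 10.33 in control skin. PUVA 3D replicate 1 was again the low array. The log2 changes were 0.044 ± 0.11 in PUVA 3D over control, -0.080 ± 0.11 in PUVA 7D over control and -0.12 ± 0.09 in PUVA 7D over PUVA 3D (SE, adjusted p of 0.939, 0.971 and 0.683). Without PUVA 3D replicate 1 the last was -0.20, and the first turned to -0.023 without control replicate 2.

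S100a10 had the same low array, at 11.35 on PUVA 3D replicate 1 beside 11.53 to 11.65 on the other PUVA 3D arrays. Deviations from group means over the 8 PUVA arrays correlated at 0.884 between S100a4 and S100a6, 0.856 between S100a4 and S100a10, and 0.92 between S100a6 and S100a10. Without PUVA 3D replicate 1, a choice made after seeing the data, the 3 values were 0.447, 0.838 and 0.841, so that the value of S100a4 with S100a6 rests largely on that array. On PUVA 3D replicate 1 the means of the fibroblast list (10.90) and the dendritic and Langerhans cell list (7.59) were the lowest of the PUVA 3D arrays. So were those of Schwann cells (8.08), melanocytes (5.92) and fused S100 proteins (7.80, described below). Those of keratinocytes (11.01) and skeletal muscle (11.75) were the highest. Macrophages stood at 9.80, within the PUVA 3D range of 9.41 to 10.28. Over the 10 arrays the dendritic and Langerhans cell list correlated at 0.734 with S100a4, 0.71 with S100a6 and 0.388 with S100a10. PUVA 7D replicates 1 and 2 had dendritic and Langerhans cell means of 7.60 and 7.59, with S100a4 at 8.63 and 8.67. The part of these lists in the values of these S100 genes was not tested.

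**Figure D3:**
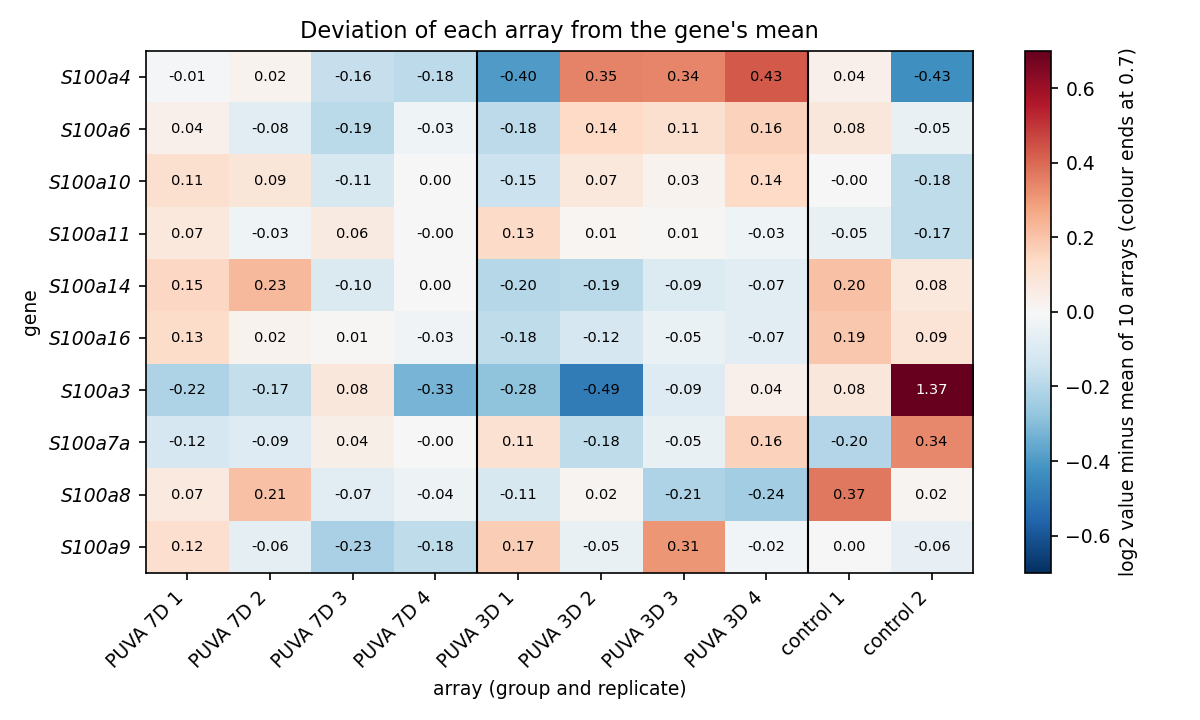
Log2 value of each S100 gene (rows) on each array (columns, by group and replicate) minus the gene's mean over the 10 arrays; red is above and blue below, and the colour scale ends at 0.7. S100a4, S100a6 and S100a10 are low together on PUVA 3D replicate 1, S100a14 and S100a16 are below their means on all 4 PUVA 3D arrays, and S100a3 on control replicate 2 stands 1.37 above its mean.

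The named genes most like S100a4 in pattern were Mpo, which encodes the neutrophil enzyme myeloperoxidase, Spata31d1b and Ceacam3, at Pearson correlations of 0.907, 0.904 and 0.896. Mpo averaged 4.98 ± 0.16 in PUVA 7D, 5.27 ± 0.40 in PUVA 3D (SD, n = 4 each) and 4.84 ± 0.06 in control skin (SD, n = 2). The gene most like S100a6 was P4ha2, which encodes a collagen prolyl hydroxylase, at 0.94. For other members the most alike named genes had correlations of 0.841 for S100a8 (Fgfr3, a growth factor receptor of keratinocytes), 0.881 for S100a9 (Spink12), 0.879 for S100a7a (Ctsm), 0.886 for S100a10 (Gpr179), 0.917 for S100a11 (Arhgap20) and 0.942 for S100a14 (Rpl9, a ribosomal protein gene). With 10 arrays and 5993 genes searched, these rank the patterns and test nothing.

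S100a10 and S100a11 differed little between the PUVA groups. S100A10 forms a tetramer with annexin A2 that ties membranes to the cytoskeleton. The S100a10 values were 11.62, 11.59, 11.40 and 11.51 in PUVA 7D skin, 11.35, 11.58, 11.53 and 11.65 in PUVA 3D skin, and 11.50 and 11.33 in control skin, so the groups overlapped. The log2 change was 0.11 ± 0.10 (SE) in each PUVA group over control, with 95% intervals of -0.12 to 0.34 (0.024 in each without control replicate 2), and 0.0006 ± 0.09 in PUVA 7D over PUVA 3D, with an interval of -0.19 to 0.19. The last interval bounds any difference between the PUVA groups to 0.878-fold to 1.14-fold. Anxa2, the annexin partner, averaged 10.94 ± 0.08 in PUVA 7D, 10.90 ± 0.06 in PUVA 3D (SD, n = 4 each) and 10.80 ± 0.14 in control skin (SD, n = 2).

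S100A11 binds annexin A1 and is built into the cornified envelope of keratinocytes. The S100a11 values were 12.07, 11.97, 12.06 and 12.00 in PUVA 7D skin, 12.13, 12.01, 12.01 and 11.97 in PUVA 3D skin, and 11.95 and 11.82 in control skin. All 8 PUVA arrays lay above both controls, by a small margin. The log2 changes were 0.14 ± 0.08 in PUVA 3D over control and in PUVA 7D over control (SE, adjusted p = 0.602 and 0.905), or 1.11-fold and 1.1-fold. Without control replicate 2 they were 0.083 and 0.076. Between the PUVA groups the change was -0.0063 ± 0.07 (SE), with an interval of -0.15 to 0.14.

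**Figure D4:**
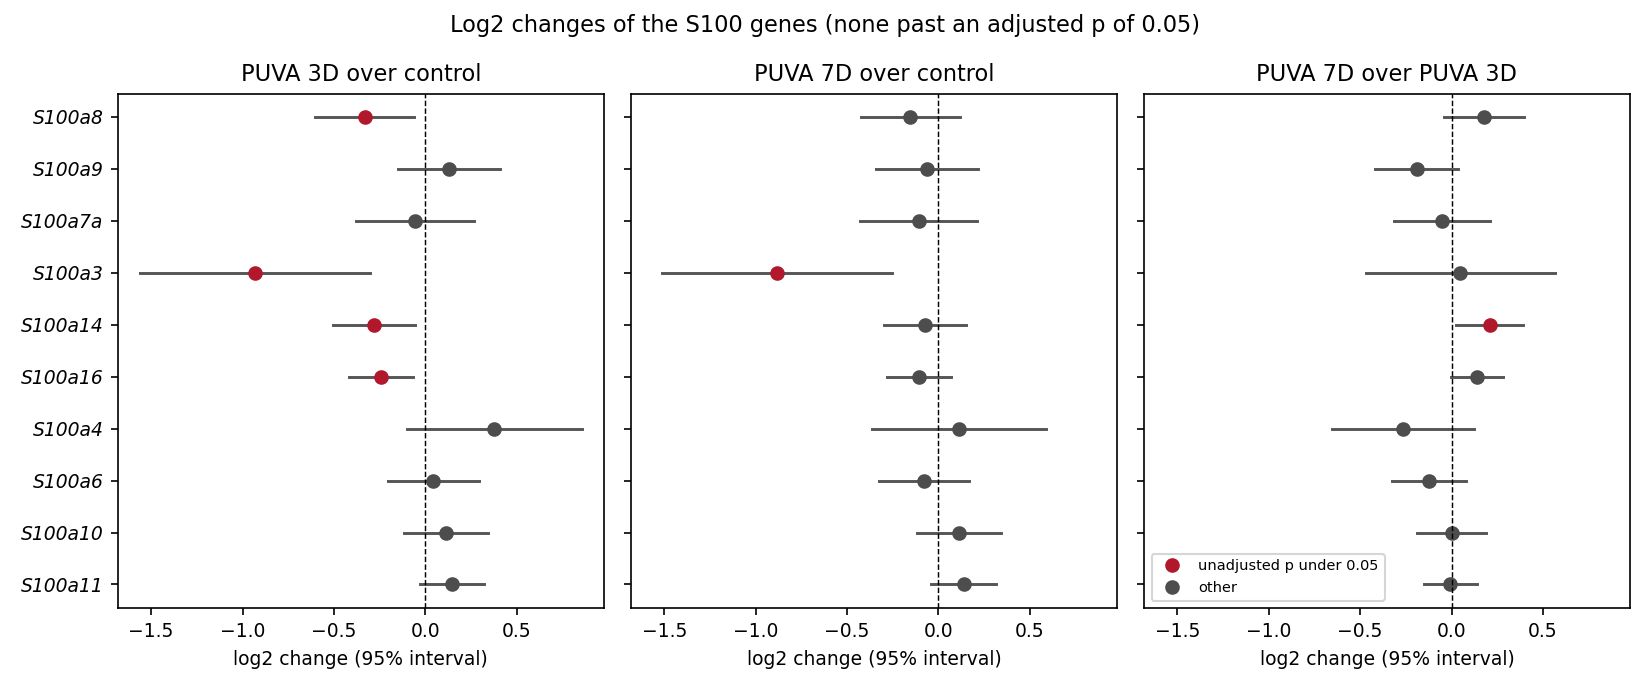
Log2 change (x axis, points) with its 95% interval (lines, limma fit over 10 arrays) of each S100 gene (y axis) in the 3 comparisons; red marks an unadjusted p under 0.05. S100a3 lies furthest from 0 in both comparisons with control, at -0.93 and -0.88, while the intervals of S100a10 and S100a11 include 0 in all 3.

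By group means, S100a4, S100a6 and S100a9 were highest in PUVA 3D skin. S100a4 was lowest in control, and S100a6 and S100a9 were lowest in PUVA 7D. S100a14, S100a16 and S100a8 were highest in control, next in PUVA 7D and lowest in PUVA 3D. S100a3 and S100a7a were highest in control, S100a3 with PUVA 3D lowest and S100a7a with PUVA 7D lowest. For S100a10 and S100a11 control was lowest, with nearly equal PUVA means. Neighbours in these orders overlapped in their arrays, with the exceptions of PUVA 7D against PUVA 3D for S100a16, and of the nearest PUVA group against control for S100a3 and S100a11.

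None of the other 8 S100 genes passed an adjusted p of 0.05. S100a13, whose protein is released with fibroblast growth factor 1 under stress, had log2 values of 7.12 to 7.32 in PUVA 7D, 7.35 to 7.61 in PUVA 3D and 7.02 and 7.34 in control skin. PUVA 3D arrays did not overlap with either other group, though the lowest of them (7.346) all but touched control replicate 1 (7.336). In PUVA 3D over control, 9.52% of all genes were higher without overlap. The change of S100a13 was 0.30 ± 0.11 in PUVA 3D over control (SE, adjusted p = 0.451), and 0.14 without control replicate 2. PUVA 7D over PUVA 3D gave -0.26 ± 0.09 (SE, adjusted p = 0.44). An exact permutation test gave p = 0.0286, the smallest that these group sizes allow. Of all genes, 5.23% separated the PUVA groups as fully, and 2.28% did so with lower values in PUVA 7D. S100a5, S100a7l2 and S100z lay below the lower quartile on every array. S100a5 had a change of 0.52 ± 0.20 in PUVA 7D over control (SE, adjusted p = 0.803), and 0.32 without control replicate 1 and 0.71 without control replicate 2. S100b, known from Schwann cells and melanocytes, had 0.11 ± 0.13, and S100a1, known from muscle, had 0.0030 ± 0.08 in that comparison (SE). S100a2 and S100g had changes of -0.035 and -0.011 there. The RefSeq models of S100a3 and S100a2 overlap, as do those of S100a1 and S100a13, and whether their probe sets share sequence was not analysed here.

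Fused S100 proteins carry an S100 domain at the start of a long repeat protein of the cornified layer or of the inner root sheath. Of 7 measured genes, all 7 lay below 0 in PUVA 3D over control (49.4% of all genes lay there), with a median log2 change of -0.16, and 4 in PUVA 7D over control (45%), with a median of -0.30. Without control replicate 1 the count in PUVA 3D over control was 5 of 7, and without control replicate 2 it was 6 of 7, with a median of -0.26. At an unadjusted p under 0.05, 2 were lower in each comparison, Tchh and Crnn (4.07% and 2.68% of all genes were lower). Tchh encodes trichohyalin, which hardens the inner root sheath. It averaged 5.16 ± 0.19 in PUVA 7D, 5.12 ± 0.53 in PUVA 3D (SD, n = 4 each) and 8.82 ± 2.38 in control skin (SD, n = 2). Its change was -3.70 ± 0.69 in PUVA 3D over control (SE, adjusted p = 0.14), -2.01 without control replicate 2, and -5.39 with an adjusted p of 7.89e-05 without control replicate 1. Crnn, the cornulin gene, had -1.68 ± 0.46 (SE, adjusted p = 0.319), -0.49 without control replicate 2, and -2.87 with an adjusted p of 1.05e-05 without control replicate 1.

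The fused genes of the interfollicular epidermis differed less. Flg, the filaggrin gene, had log2 changes of -0.12 ± 0.19 in PUVA 3D over control and 0.13 ± 0.19 in PUVA 7D over control, and Hrnr, the hornerin gene, -0.052 ± 0.19 and 0.067 ± 0.19 (SE). Flg2 had 0.25 ± 0.09 in PUVA 7D over PUVA 3D (SE, adjusted p = 0.448). It averaged 11.88 ± 0.07 in PUVA 7D and 11.63 ± 0.13 in PUVA 3D skin (SD, n = 4 each). Rptn, the repetin gene, ran from 6.68 to 9.75 within the PUVA 3D group alone.

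Partners and receptors of S100 proteins lay on both sides of 0. Of 16 measured genes, 8 lay above 0 and 8 below in PUVA 3D over control (median 0.013), 6 above and 10 below in PUVA 7D over control (median -0.010), and 9 above and 7 below in PUVA 7D over PUVA 3D (median 0.0047). The counts without control replicate 1 were 10 above and 6 below in PUVA 3D over control, and in PUVA 7D over control they turned to 9 above and 7 below (median 0.022). With all 10 arrays none passed an adjusted p of 0.05. Tlr4, a receptor through which calprotectin signals, averaged 7.59 ± 0.18 in PUVA 7D, 7.83 ± 0.32 in PUVA 3D (SD, n = 4 each) and 7.29 ± 0.12 in control skin (SD, n = 2). Its change was 0.54 ± 0.18 in PUVA 3D over control (SE, adjusted p = 0.41). Ager, which encodes the receptor RAGE, had -0.12 ± 0.10 and -0.11 ± 0.10 in PUVA 3D and PUVA 7D over control (SE). Anxa6, an annexin, had -0.29 ± 0.12 in PUVA 7D over PUVA 3D (SE, adjusted p = 0.49).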

How the data were processed

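The authors deposited values for 41345 probe sets on each array, read here as log2 from their range. Sources used here give neither the log base nor the normalization. Per the labels' protocols, a miRNeasy extraction with DNase preceded WT PLUS labelling. The platform annotation gave a gene for 25335 probe sets, 1 symbol for 23521 of them, which gave 22180 genes, with the highest-mean probe set for the 1082 genes with several. One limma model (version 3.58.1, R 4.3.3) held the 3 group means of all 10 arrays, with moderated two-sided tests (7 residual and 3.514 prior degrees of freedom), and p-values were adjusted by Benjamini-Hochberg over all genes, threshold 0.05. No gene was filtered for dim signal. Scripts were tested on simulated data. The members and lists were chosen with earlier results of these data known, and S100a2 was added to the other S100 genes from the annotation. All 10 members are named, with up to 2 genes of smallest p per list and comparison and from 1 to 3 of the 3 genes most correlated with each member among those with an SD of at least 0.2. Further list members (such as Krt6a, Krt16, Krt17, Hrnr, Rptn, Ager and Anxa2) and the keratins of the tissue check were chosen for their roles, with their values known. Alternatives were quantile normalization, median centring, leaving out the lowest 30% of genes, probe set means, trend and robust eBayes, array weights, only the groups compared, an adjusted p of 0.10, and leaving out each array. Replicate numbers follow sample order and pair nothing.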

Additional observations from a re-analysis of the deposited data

Results flagged for a closer look

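S100a4 on PUVA 3D replicate 1 had a log2 value of 8.25, far from the other PUVA 3D arrays at 8.98 to 9.07 (the gap was 0.89 of the group's range). S100a6 on the same array had 10.20, with the others at 10.49 to 10.54 (0.852 of the range). The 36 groups of 4 arrays examined were those of 18 S100 genes in PUVA 7D and PUVA 3D skin, and chance gives about 1 such array in 20 groups if groups are independent. Both values here lie on the same array, in genes that correlate at 0.833 over the 10 arrays, and S100a10 was also lowest there among PUVA 3D arrays (11.35).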

How the results depend on the processing

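No paired analysis was possible because the labels give no replicate numbers shared between groups. Of 204 values of the S100 genes under other processing, 200 kept their direction and their side of the threshold, and the other 4, all in PUVA 7D over PUVA 3D, were near 0 and turned: with array weights S100a3 had -0.018, S100a10 -0.035 and S100a11 0.0083, and with median centring S100a11 had 0.0020. The filter on the lowest 30% of genes removed S100a8 and S100a9. Of 300 values with 1 array left out, 284 stayed, 14 turned, and the 2 of S100a3 without control replicate 1 passed the threshold. The results that turned ranged in PUVA 3D over control from -0.023 to 0.12 for S100a6 and from -0.33 to 0.21 for S100a7a. PUVA 7D over control gave ranges from -0.12 to 0.34 for S100a4, from -0.38 to 0.16 for S100a7a and from -0.33 to 0.020 for S100a8. PUVA 7D over PUVA 3D gave ranges from -0.046 to 0.13 for S100a3, from -0.057 to 0.045 for S100a10 and from -0.027 to 0.027 for S100a11. Genes past the threshold in PUVA 3D over control numbered 3 with array weights and 16 at an adjusted p of 0.10, and 1 to 182 with 1 array left out. In PUVA 7D over control they numbered 0 to 217 with 1 array left out. In PUVA 7D over PUVA 3D they numbered 6 with array weights, 1 without the dim genes, 1 with only the groups compared and 6 at an adjusted p of 0.10, and 0 to 10 with 1 array left out. The highest counts against control, 182 and 217, came without control replicate 1. The number of controls and the dim signal of S100a8 and S100a9 limit what these arrays can show.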
